A study of Mus musculus with 30 samples.

Results

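Immediate early and AP-1 genes were followed as 10 members, *Fos*, *Fosb*, *Jun*, *Junb*, *Egr1*, *Atf3*, *Ier2*, *Zfp36*, *Btg2*, and *Dusp1*, chosen by symbol from a table of 55335 genes. All 10 were found in the table by their Ensembl identifiers. They were measured by mRNA sequencing in the livers of 30 male mice, 5 in each of 6 groups. The mice were 7 to 10 weeks old, of the albino C57BL/6J background, and wild-type (WT), homozygous for a *Keap1* allele with serine in place of the reactive cysteine C151 (C151S), or *Nrf2*-knockout (Nrf2-KO). Each mouse had received 1 oral dose of CDDO-Me, a triterpenoid that activates NRF2, at 30 µmol/kg or vehicle (DMSO, Cremophor-EL, and PBS), and livers were taken 24 hours later. Both mutations are constitutive and not limited to 1 cell type. C151S mice, made by CRISPR-Cas9 editing, and Nrf2-KO mice were bred from homozygous matings, whereas WT mice came from a supplier, so that genotype and colony cannot be told apart. The RNA was from whole liver, so that fewer cells of a type and less RNA per cell cannot be told apart either.

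Immediate early genes are transcribed within minutes of a stimulus, without new protein synthesis, when MAP kinases act on factors already bound at their promoters. FOS and JUN proteins pair through leucine zippers to form AP-1, which binds DNA and passes the signal on to later genes. The response is brief because products such as the RNA decay factor encoded by *Zfp36* and the MAP kinase phosphatase encoded by *Dusp1* end it. In liver the family is known for its rapid rise after partial hepatectomy.

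The AP-1 subunits were *Fos* (chromosome 12, 85473890 to 85477273, plus strand), *Fosb* (chromosome 7, 19302696 to 19310051, minus strand), *Jun* (chromosome 4, 95049034 to 95052222, minus strand), *Junb* (chromosome 8, 84974484 to 84978718, minus strand), and *Atf3* (chromosome 1, 191170296 to 191218039, minus strand), with positions in GRCm38. *Ier2*, a small nuclear protein, lies on chromosome 8 from 84661331 to 84662852. *Zfp36* lies on chromosome 7 from 28376784 to 28380253, the antiproliferative gene *Btg2* on chromosome 1 from 134075170 to 134079120, and *Dusp1* on chromosome 17 from 26505590 to 26562128, all on the minus strand. The annotated intervals of *Jun*, *Junb*, *Atf3*, *Zfp36*, and *Dusp1* overlap a gene on the opposite strand, and that of *Dusp1* also overlaps AC122252.4 and AC122252.1 on its own strand. Counts were kept for the sequenced strand.

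RefSeq promoters (GRCm38.p6, 250 bases before and 50 after the start site) were matched for 8 of the 10 members. They were searched on both strands for the cAMP response element TGACGTCA, the AP-1 site TGANTCA, the core of the antioxidant response element bound by NRF2 (TGACNNNGC), the E-box CACGTG, and the CArG box bound by serum response factor. Matches were found in 3 of them, and those stretches are shown, with the *Fos* promoter as a member without an exact match in its window. Capitals mark the matches.
Zfp36, chr7:28379267-28379296, minus strand: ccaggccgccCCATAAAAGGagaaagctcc
Btg2, chr1:134079156-134079405, minus strand: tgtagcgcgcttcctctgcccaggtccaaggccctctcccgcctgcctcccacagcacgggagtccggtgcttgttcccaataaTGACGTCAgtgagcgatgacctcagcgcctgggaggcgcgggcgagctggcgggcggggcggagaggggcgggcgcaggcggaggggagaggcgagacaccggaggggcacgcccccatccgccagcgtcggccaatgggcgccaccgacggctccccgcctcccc
Dusp1, chr17:26508523-26508722, minus strand: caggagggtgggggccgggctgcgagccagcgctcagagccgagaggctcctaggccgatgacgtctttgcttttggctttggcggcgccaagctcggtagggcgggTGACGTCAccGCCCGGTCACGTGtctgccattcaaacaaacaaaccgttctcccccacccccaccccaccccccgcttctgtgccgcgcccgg
Fos, chr12:85473640-85473889, plus strand: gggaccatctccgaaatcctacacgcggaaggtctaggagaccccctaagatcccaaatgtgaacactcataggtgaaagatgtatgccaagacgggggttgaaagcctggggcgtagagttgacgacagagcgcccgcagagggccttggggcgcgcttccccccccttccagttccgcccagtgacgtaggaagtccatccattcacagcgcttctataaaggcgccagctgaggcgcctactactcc

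The *Zfp36* stretch holds a CArG box from position -58 to -49, counted from the start site. The *Btg2* promoter holds a cAMP response element from -166 to -159. In *Dusp1*, a cAMP response element from -143 to -136 is followed by the antioxidant response element core, on the opposite strand, from -133 to -125 and by an E-box from -126 to -121, so that the last pair overlap. Over all 32851 promoters of the table, the cAMP response element was found in 1.79%, the CArG box in 1.63%, the antioxidant response element core in 12.4%, the E-box in 7.15%, and the AP-1 site in 7.81%. A match in these windows is a description of the letters only. Sites outside the windows, or with other letters, were not searched for.

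Libraries held 23667068 to 42073169 counts on genes, and no library repeated another of its own group. *Nfe2l2*, the gene disrupted in Nrf2-KO mice, had 66.1 ± 4.15 CPM (counts scaled to the library total times its TMM factor, which was 0.88 to 1.09; mean ± SD, n = 5) in vehicle-treated WT and 35.2 ± 4.54 CPM in vehicle-treated Nrf2-KO livers, and *Nqo1*, a direct NRF2 target, rose from 7.20 ± 2.38 to 64.4 ± 25.0 CPM with CDDO-Me in WT. The hepatocyte markers *Alb*, *Apoa1*, *Ttr*, *Cps1*, and *Serpina1a* summed to between 62056 and 147373 CPM in each library. The mutant libraries parted by the clock gene *Arntl*, which was between 2.52 and 4.79 log2 CPM in 19 libraries, all 10 of WT among them, and between -1.15 and 0.90 in 11. The treatment comparisons in C151S and Nrf2-KO livers were also read within these sets.

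Per kilobase of exon, *Zfp36* was the highest member, with a median of 67.3 CPM per kilobase over the 30 libraries, followed by *Egr1* at 23.6, *Ier2* at 19.7, *Junb* at 18.9, *Dusp1* at 15.5, *Btg2* at 13.6, and *Jun* at 13.3. *Fos* had a median of 4.30 CPM per kilobase and *Atf3* of 0.711. *Fosb* was the lowest at 0.0396, and it had 3 counts or fewer, the floor of detection, in 5 libraries.

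The members varied more between mice of the same group than most genes did. From the lowest to the highest of all 30 libraries, across groups, *Fos* spanned 149-fold (0.509 to 75.8 CPM), *Egr1* 139-fold (2.94 to 410 CPM), *Jun* 30.9-fold, and *Zfp36* 5.71-fold. Inside a single group their widest spans were 149-fold, 94.6-fold, 28.8-fold, and 4.78-fold in that order, all in CDDO-Me-treated WT livers. Within groups, the SD of log2 CPM was 2.17 for *Fos*, 2.01 for *Fosb*, 1.996 for *Egr1*, 1.53 for *Atf3*, 1.32 for *Jun*, 1.19 for *Btg2*, 0.98 for *Ier2*, 0.85 for *Junb*, 0.80 for *Dusp1*, and 0.59 for *Zfp36*. The median SD over the 15010 genes that passed the filter was 0.27, and *Zfp36* stood at percentile 86.2 of it and the others between 95.5 and 99.9. The spread was widest in CDDO-Me-treated WT livers, where the median SD of the members was 2.06, and narrowest in vehicle-treated Nrf2-KO livers, where it was 0.56.

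**Figure D1:**
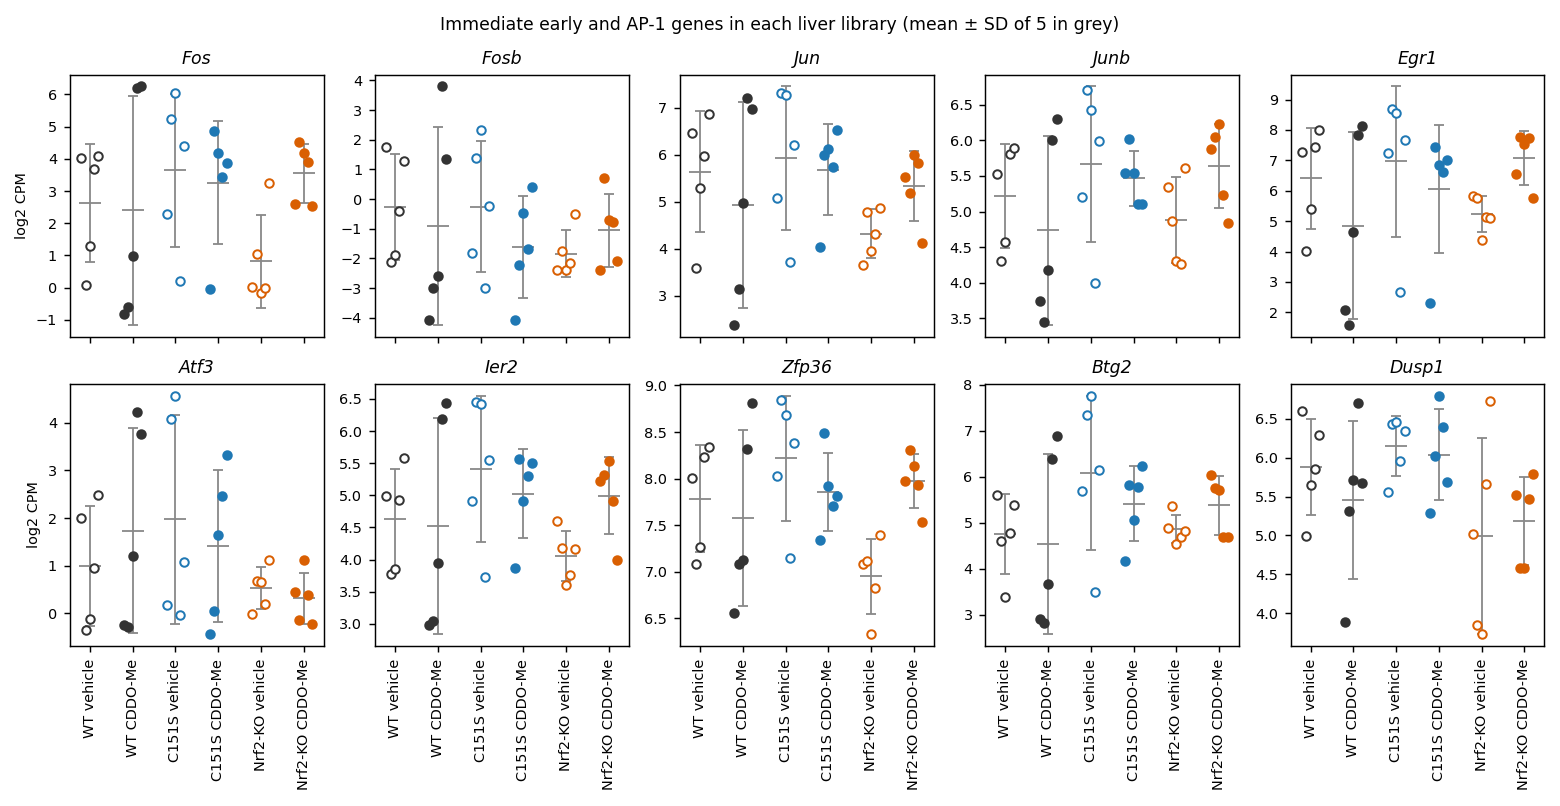
Log2 CPM of each member (y axis) in each of the 30 libraries, by group (x axis). Open points are vehicle-treated and filled points CDDO-Me-treated mice, in replicate order from left to right, and grey bars give the mean ± SD of 5. Groups overlap for every member and pair of groups except Zfp36 in the Nrf2-KO groups, and CDDO-Me-treated WT livers have 2 libraries far above the other 3 for Fos, Egr1, and Btg2.

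*Fos*, the AP-1 subunit that needs a JUN partner to bind DNA, showed the split most clearly. In WT livers it was 16.3, 0.995, 2.39, 12.8, and 17.1 CPM in vehicle-treated replicates 1 to 5 and 0.509, 0.595, 1.94, 73.9, and 75.8 CPM after CDDO-Me. In C151S livers it was 4.85, 38.0, 66.2, 1.11, and 21.2 CPM with vehicle and 0.915, 29.0, 18.0, 10.7, and 14.5 CPM with CDDO-Me. In Nrf2-KO livers it was 0.963, 2.0, 0.826, 0.924, and 9.54 CPM with vehicle and 6.06, 22.9, 18.1, 14.8, and 5.75 CPM with CDDO-Me. The WT livers given CDDO-Me held both the lowest and the highest *Fos* values of the 30 libraries. Only replicate 5 of the vehicle-treated Nrf2-KO group reached into the range of its CDDO-Me-treated group.

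*Jun*, the main partner of FOS, was 88.0, 12.01, 39.2, 62.6, and 118 CPM in vehicle-treated WT livers and 5.17, 8.77, 31.4, 149, and 125 CPM after CDDO-Me. In C151S livers it was 33.9, 159, 155, 13.2, and 73.9 CPM with vehicle and 16.4, 63.5, 69.6, 53.7, and 92.6 CPM with CDDO-Me. In Nrf2-KO livers it was 12.6, 27.3, 15.6, 19.9, and 29.3 CPM with vehicle and 45.9, 36.3, 63.9, 57.1, and 17.5 CPM with CDDO-Me. The same WT libraries, replicates 4 and 5 given CDDO-Me, were high for *Jun* as for *Fos*, and all 5 vehicle-treated Nrf2-KO livers stayed under 30 CPM.

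*Egr1*, the zinc finger factor of the family (chromosome 18, 34859823 to 34864984, plus strand), was 153, 16.0, 41.9, 172, and 253 CPM in vehicle-treated WT livers and 4.15, 2.94, 24.8, 226, and 278 CPM after CDDO-Me. In C151S livers it was 150, 410, 374, 6.34, and 203 CPM with vehicle and 4.91, 173, 114, 97.5, and 130 CPM with CDDO-Me. In Nrf2-KO livers it was 57.2, 54.3, 20.6, 34.8, and 34.4 CPM with vehicle and 94.4, 219, 187, 214, and 54.2 CPM with CDDO-Me. Replicate 4 of vehicle-treated and replicate 1 of CDDO-Me-treated C151S livers were the low libraries of their groups, at 6.34 and 4.91 CPM.

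*Zfp36*, whose protein binds AU-rich messages and hastens their decay, moved over a narrower range. It was 256, 136, 154, 301, and 325 CPM in vehicle-treated WT livers and 94.0, 136, 140, 319, and 449 CPM after CDDO-Me. In C151S livers it was 262, 459, 410, 142, and 333 CPM with vehicle and 162, 360, 243, 209, and 224 CPM with CDDO-Me. In Nrf2-KO livers it was 135, 139, 80.3, 113, and 169 CPM with vehicle and 252, 316, 282, 243, and 185 CPM with CDDO-Me. These last groups did not overlap, which was the case for 1 of the 15 pairs of groups for *Zfp36* and for none of the 15 for any other member. Over all genes tested, groups did not overlap for 5.5% (WT), 2.14% (C151S), and 1.73% (Nrf2-KO) with treatment. Between vehicle-treated genotypes it was 8.89% for C151S and WT, 12.3% for Nrf2-KO and WT, and 2.74% for C151S and Nrf2-KO, and between those given CDDO-Me 7.55%, 10.8%, and 1.78%.

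*Dusp1*, the phosphatase that ends MAP kinase signaling, ordered the libraries differently. In Nrf2-KO livers it was 32.2, 14.3, 13.2, 50.8, and 106 CPM with vehicle and 45.9, 23.9, 23.9, 44.3, and 55.4 CPM with CDDO-Me. The vehicle-treated group thus held both ends of the range of these 10 livers. In WT livers it ranged from 31.8 to 97.3 CPM with vehicle and from 14.7 to 104 CPM with CDDO-Me, and in C151S livers from 47.0 to 88.4 and from 39.1 to 111 CPM.

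The other members spanned the following ranges. *Btg2* ran from 7.01 CPM in WT CDDO-Me replicate 2 to 216 CPM in C151S vehicle replicate 3. *Junb* ran from 10.8 CPM in WT CDDO-Me replicate 2 to 104 CPM in C151S vehicle replicate 2, and *Ier2* from 7.83 CPM in WT CDDO-Me replicate 1 to 87.3 CPM in C151S vehicle replicate 2. *Atf3* ran from 0.678 CPM in C151S CDDO-Me replicate 1 to 23.7 CPM in C151S vehicle replicate 3, and *Fosb* from 0 counts in 2 libraries to 13.8 CPM in WT CDDO-Me replicate 4. For each of these 5 members every pair of groups overlapped.

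By median level, C151S vehicle was the highest of the 6 groups for 9 of the 10 members, and *Atf3* was highest in C151S CDDO-Me livers. The lowest group was WT CDDO-Me for *Fosb*, *Junb*, *Egr1*, *Ier2*, and *Btg2*, Nrf2-KO vehicle for *Fos*, *Jun*, *Zfp36*, and *Dusp1*, and Nrf2-KO CDDO-Me for *Atf3*. For none of the members did neighboring groups in this order differ beyond the overlap of their libraries. The medians of *Fos*, for example, fell from 21.2 CPM in C151S vehicle to 0.963 CPM in Nrf2-KO vehicle livers, while both groups held libraries between 1.11 and 9.54 CPM.

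The first comparison asked whether CDDO-Me changed the family in WT livers. None of the 10 members was called (edgeR quasi-likelihood F-test, Benjamini-Hochberg false discovery rate under 0.05 and absolute log2 fold change of at least 0.5), where 2.75% of the 13697 genes tested were called. At an unadjusted p under 0.05 there were also 0 members, where 17% of all genes had such a p, and DESeq2 called 0. *Fos* was 9.90 ± 7.68 CPM with vehicle and 30.6 ± 40.5 CPM with CDDO-Me, a log2 fold change of 1.64 ± 1.17 (SE) with adjusted p = 0.543. *Atf3*, a bZIP factor that pairs with JUN and is induced by stress, had the lowest p of the members, with a log2 fold change of 1.51 ± 0.85 and adjusted p = 0.410. The log2 fold changes of *Jun*, *Zfp36*, *Junb*, *Egr1*, and *Dusp1* lay between -0.27 and 0.00, with SE up to 1.05. The median over the members was 0.23, beside -0.01 over all genes tested.

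In C151S livers, fold changes of all 10 members were below 0, and none was called, where 0.092% of the 14128 genes tested were called. The members varied together between mice, so these directions are not independent. No member had an unadjusted p under 0.05, where 13.7% of all genes did, and DESeq2 called 0. *Fosb* had the lowest fold change, -1.91 ± 1.02 (SE, adjusted p = 0.413), followed by *Atf3* at -1.17 ± 0.97, *Egr1* at -1.15 ± 0.89, and *Btg2*, whose product slows the cell cycle and promotes deadenylation, at -1.12 ± 0.63. *Dusp1* had -0.07 ± 0.27. The direction of the means differed between the *Arntl* sets, which held 3 vehicle-treated and 2 CDDO-Me-treated C151S livers when high and 2 and 3 when low. In the high set all 10 members had a lower mean log2 CPM with CDDO-Me (median difference -1.74), and in the low set all 10 had a higher mean (median difference 0.95). With 2 or 3 livers on each side, these differences were not tested. *Egr1* averaged 311 CPM with vehicle and 89.0 CPM with CDDO-Me in the high set, and 105 and 114 CPM in the low set. Single libraries weighed heavily in these means. Low-set vehicle replicates 4 and 5 had 6.34 and 203 CPM of *Egr1*, beside 97.5 to 130 CPM with CDDO-Me. High-set CDDO-Me replicates 1 and 2 had 4.91 and 173 CPM. On the linear scale, *Junb* (39.7 and 38.5 CPM) and *Zfp36* (238 and 225 CPM) averaged lower with CDDO-Me in the low set.

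In Nrf2-KO livers, most members had higher values after CDDO-Me, without passing the adjusted threshold. Of 9 members tested, 0 were called, as for 0 of all 14474 genes tested (0%), but 7 had an unadjusted p under 0.05, all with higher values after CDDO-Me, where 7.85% of all genes tested had such a p. The members varied together between mice, so the p values of these 7 are not independent. DESeq2 called 2 of the 7, *Egr1* (adjusted p = 0.000298) and *Zfp36* (adjusted p = 0.000694). The share of all genes that DESeq2 called is not given, so these calls cannot be set beside it. *Zfp36* was 127 ± 32.8 CPM with vehicle and 256 ± 48.8 CPM with CDDO-Me, a log2 fold change of 1.00 ± 0.19 (SE) with adjusted p = 0.290 by edgeR. Of all genes tested, 1.06% were higher with CDDO-Me without overlap, as *Zfp36* was. *Egr1* was 40.3 ± 15.3 and 154 ± 74.8 CPM, a log2 fold change of 1.92 ± 0.39 (adjusted p = 0.299).

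The other 5 were *Fos* at 2.26 ± 0.70, *Jun* at 1.06 ± 0.33, *Ier2* at 0.97 ± 0.26, *Junb* at 0.75 ± 0.31, and *Btg2* at 0.58 ± 0.26 on the log2 scale, with adjusted p from 0.526 to 0.627 in edgeR. The study, whose fit included the date of sample isolation, reported *Fos* as the only gene raised by CDDO-Me in Nrf2-KO livers. Here *Fos* was not called (adjusted p = 0.547 in edgeR) without those dates. The reason for the difference was not tested. *Atf3* (-0.20 ± 0.31) and *Dusp1* (-0.17 ± 0.52) lay on the other side of 0. *Fosb* did not pass the filter on low counts, with 0.262 ± 0.216 CPM with vehicle and 0.591 ± 0.581 CPM with CDDO-Me. Within the *Arntl* sets, 8 of 10 members had a higher mean with CDDO-Me in the high set (2 livers against 2) and 10 of 10 in the low set (3 against 3). *Zfp36* averaged 141 and 251 CPM in the high set and 118 and 259 CPM in the low set.

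**Figure D2:**
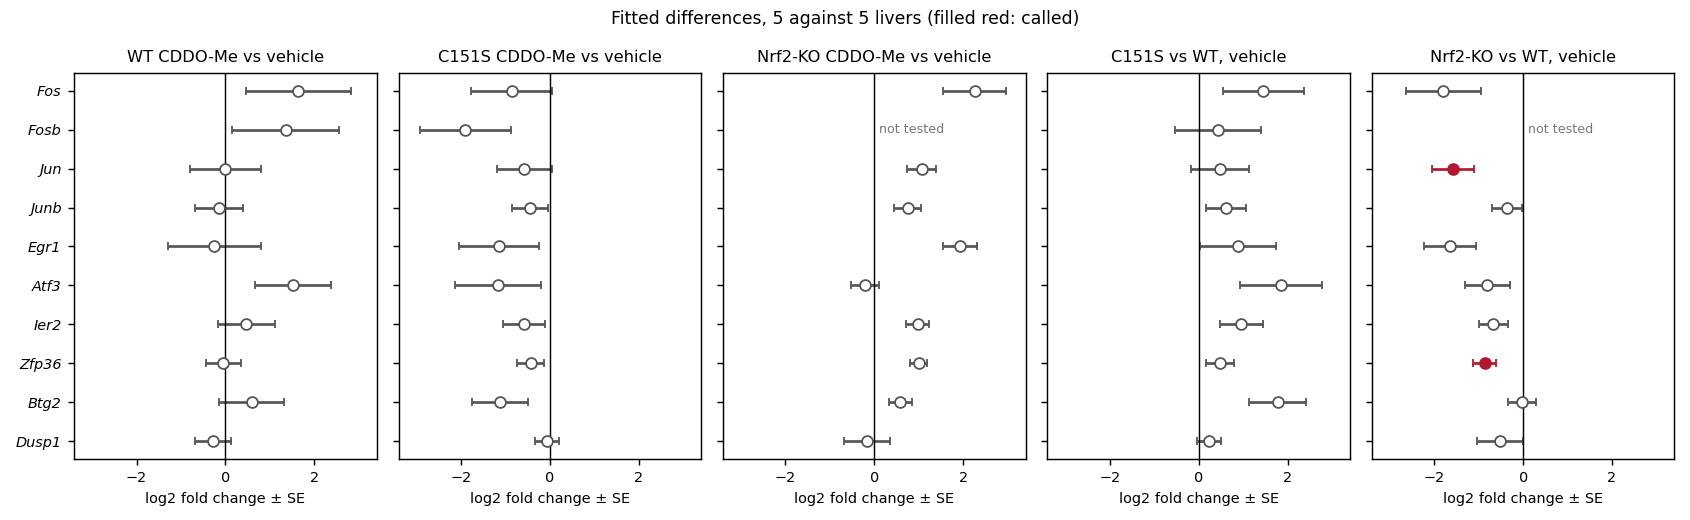
Log2 fold change of each member (x axis, ± SE) in 5 comparisons of 5 against 5 livers. Filled red points are called and open points are not, and Fosb was not tested in comparisons marked so. Only Jun (-1.59) and Zfp36 (-0.86) in vehicle-treated Nrf2-KO against WT livers were called.

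Responses were then compared between genotypes in a fit of all 30 libraries. None of the 10 members was called in any of the 3 differences of responses (false discovery rate under 0.05), where 0.48% of 15010 genes were called between WT and C151S, 0.266% between WT and Nrf2-KO, and 0.0133% between C151S and Nrf2-KO. At an unadjusted p under 0.05 there were 1, 1, and 2 members, beside 8.31%, 6.28%, and 4.92% of all genes, and DESeq2 called 0 in each. The response of *Zfp36* in C151S minus that in Nrf2-KO livers was -1.43 ± 0.49 (SE, log2), with adjusted p = 0.943. That of *Egr1* was different by -3.07 ± 1.35, with the same adjusted p. That of *Atf3* was 2.65 ± 1.21 higher in WT than in C151S livers, with adjusted p = 0.575.

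With vehicle, *Jun* and *Zfp36* were called lower in Nrf2-KO than in WT livers. They were 2 of 9 members tested that were called, where 10.4% of 14030 genes tested were called and 4.13% were called lower. *Jun* was 20.9 ± 7.27 CPM in Nrf2-KO and 63.9 ± 41.2 CPM in WT livers, a difference of -1.59 ± 0.47 in log2 (SE, adjusted p = 0.0403). *Zfp36* was 127 ± 32.8 and 234 ± 85.6 CPM, a difference of -0.86 ± 0.25 in log2 (adjusted p = 0.0395). The groups overlapped, with WT replicate 2 below every Nrf2-KO liver for *Jun* and WT replicates 2 and 3 inside the Nrf2-KO range for *Zfp36*. At an unadjusted p under 0.05 there were 3 members, beside 33.5% of all genes. *Egr1* at -1.64 ± 0.58 (adjusted p = 0.0723) and *Fos* at -1.80 ± 0.84 (adjusted p = 0.156) had larger fold changes and were not called, and *Btg2* differed by -0.02 ± 0.32.

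These calls were lost in several of the alternatives. *Jun* was called in 2 and *Zfp36* in 4 of the 10 fits that left out a library, and no member was called without WT vehicle replicate 1, 4, or 5 or Nrf2-KO vehicle replicate 2, 3, or 4. Without Nrf2-KO vehicle replicate 5, the library with the highest *Fos* of its group, *Fos* was called (-3.03, adjusted p = 0.0206). Without WT vehicle replicate 2, 4 members were called, *Jun*, *Zfp36*, *Egr1* (-1.93, adjusted p = 0.0172), and *Fosb*. *Fosb* (0.262 CPM in Nrf2-KO and 1.36 CPM in WT livers) did not pass the filter on low counts in the reported fit. It passed in 6 of the 10 fits that left out a library, so that its calls depend on the filter. With the *Arntl* set as a covariate, *Jun* had -1.34 ± 0.68 (adjusted p = 0.224) and *Zfp36* -0.70 ± 0.35 (adjusted p = 0.225). No WT liver had low *Arntl*, so that the genotype term of this fit rests on the 2 Nrf2-KO livers with high *Arntl*. Over all 19 alternatives, adjusted p ranged from 0.00639 to 0.224 for *Jun* and from 0.00574 to 0.225 for *Zfp36*. For these fits the share of all genes called is not given. Among the vehicle-treated Nrf2-KO livers, the 2 with high *Arntl* averaged 24.6 CPM of *Jun* and the 3 with low *Arntl* 18.5 CPM.

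Markers of other liver cells moved in the same comparison. Of 5 endothelial markers, 3 were called higher in vehicle-treated Nrf2-KO livers, with a summed level of 182 to 285 CPM against 144 to 171 CPM in WT. Of 6 stellate cell and fibroblast markers, 3 were called higher, with 181 to 494 CPM against 167 to 252 CPM, and 3 of 5 erythroid markers were called lower, with 137 to 216 against 222 to 324 CPM. Kupffer cell and macrophage markers summed to 139 to 312 CPM against 96.4 to 263 CPM, with 0 of 7 called. Neutrophil markers summed to 1.18 to 10.6 CPM against 0.880 to 1.58 CPM, with *S100a8* and *S100a9* called higher of the 2 tested, and *Ly6g* was at the floor in all 30 libraries. Their part in the differences of *Jun* and *Zfp36* was not tested.

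Vehicle-treated C151S livers lay on the other side of WT. All 10 members had a fold change above 0, and none was called, where 4.84% of 13946 genes tested were called. *Btg2* was the only member with an unadjusted p under 0.05, beside 26.5% of all genes, at 102 ± 84.2 CPM in C151S and 30.5 ± 14.97 CPM in WT livers, with a fold change of 1.78 ± 0.64 on the log2 scale (SE, adjusted p = 0.103). *Atf3* followed at 1.85 ± 0.92 (adjusted p = 0.225). DESeq2 called 0. With the *Arntl* set as a covariate, *Btg2* (2.27, adjusted p = 0.0189) and *Atf3* (2.50, adjusted p = 0.0370) were called. No WT liver had low *Arntl*, so that the genotype term of that fit rests on the 3 C151S livers with high *Arntl*. Without C151S vehicle replicate 4, in which all 10 members were below their group mean, *Btg2* was called (2.07, adjusted p = 0.0169). For these fits the share of all genes called is not given.

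Between vehicle-treated C151S and Nrf2-KO livers all 9 members tested were higher in C151S, with fold changes from 0.75 to 3.25 on the log2 scale, beside a median of -0.01 over all genes. None was called, where 0.349% of 14323 genes tested were called, and 8 had an unadjusted p under 0.05, beside 11.3% of all genes. *Zfp36* was nearest to the threshold, at 321 ± 125 and 127 ± 32.8 CPM, with 1.34 ± 0.29 (SE) and adjusted p = 0.0952. DESeq2 called *Zfp36* alone (adjusted p = 0.000483), and without C151S vehicle replicate 4 edgeR called *Zfp36*, *Egr1*, *Ier2*, and *Btg2*. The share of all genes called in these fits is not given. These 3 comparisons of vehicle-treated genotypes share libraries and are not independent. Nor are the members within a comparison, since they varied together between mice.

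Among CDDO-Me-treated livers no member was called between any genotypes, where 5% of 13844 genes were called between C151S and WT, 9.44% of 13935 between Nrf2-KO and WT, and 0.162% of 14186 between C151S and Nrf2-KO. At an unadjusted p under 0.05 there were 0, 1, and 2 members, beside 24.6%, 28.8%, and 7.82% of all genes. *Atf3* was nearest to the threshold, with 1.26 ± 0.526 CPM in Nrf2-KO and 7.22 ± 8.38 CPM in WT livers, a difference of -2.49 ± 0.82 in log2 (SE, adjusted p = 0.0664). It was called by DESeq2 (adjusted p = 0.0312) and without WT CDDO-Me replicate 1 or 2 (adjusted p = 0.0414 and 0.0393). The share of all genes called in these fits is not given. The 5 Nrf2-KO livers had 1.30, 0.847, 2.11, 1.25, and 0.797 CPM of *Atf3*, inside the span of the WT livers, which had 0.783, 0.761, 2.26, 18.8, and 13.5 CPM.

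The members rose and fell together from mouse to mouse. Each library was described by its deviations, the log2 CPM of each member minus the mean of its group. All 10 members were above the group mean in WT vehicle replicates 1 and 5, WT CDDO-Me replicates 4 and 5, and C151S vehicle replicates 2 and 3. All 10 were below it in WT vehicle replicates 2 and 3, WT CDDO-Me replicates 1 and 2, and C151S vehicle replicate 4. The median deviation was 2.07 and 2.03 in WT CDDO-Me replicates 4 and 5, -1.81 and -1.76 in replicates 1 and 2 of that group, and -2.10 in C151S vehicle replicate 4. In no Nrf2-KO library and in no C151S CDDO-Me library were all 10 on the same side of the mean. The median deviations of the Nrf2-KO libraries lay between -0.90 and 0.58.

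**Figure D3:**
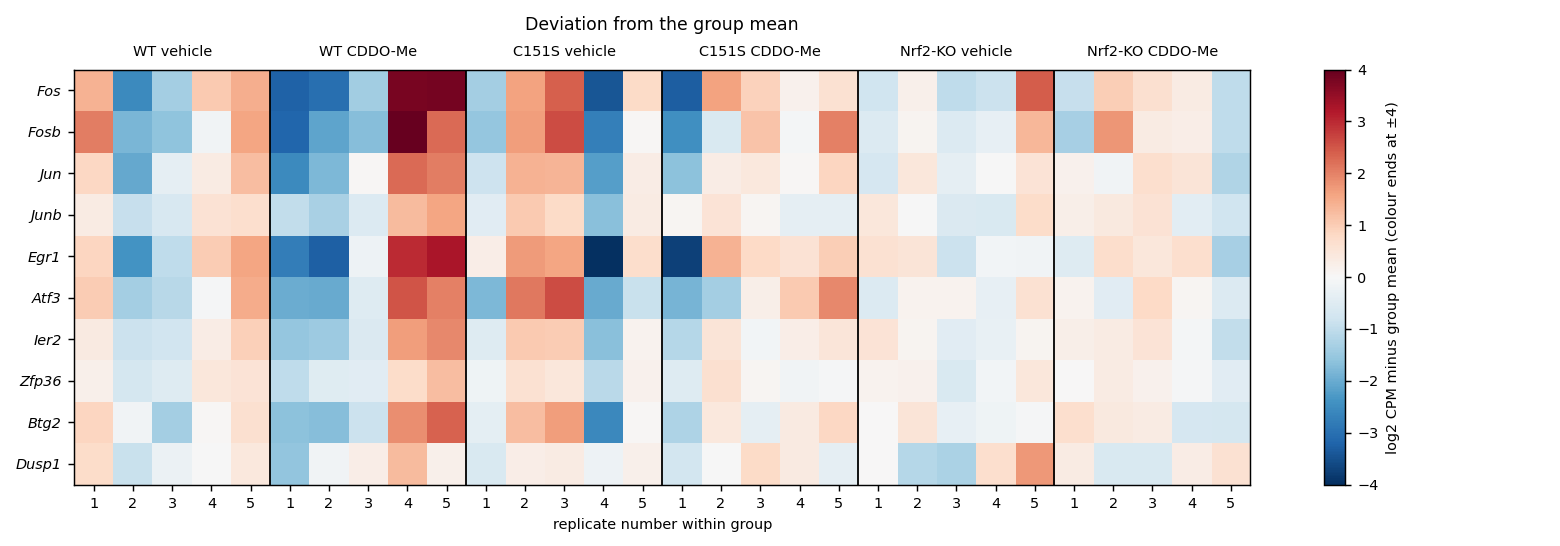
Deviation of each member (rows) from its group mean in each library (columns, 5 per group), in log2 CPM, with red above and blue below the mean. WT CDDO-Me replicates 4 and 5 are red and replicates 1 and 2 blue in all 10 rows, and the Nrf2-KO columns are paler and mixed. Columns of C151S CDDO-Me are mixed as well.

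Over the 45 pairs of members, Pearson's r of the deviations ranged from 0.33 to 0.94 with a median of 0.85, and Spearman's rho from 0.31 to 0.95 with a median of 0.82. Pearson's r passed at an adjusted p under 0.05 for 44 pairs and Spearman's rho for 42 (permutation test, 2-sided, 100000 permutations within groups, adjusted over 45 pairs). The highest were *Ier2* with *Btg2* (r = 0.94, rho = 0.91), *Egr1* with *Ier2* (r = 0.94, rho = 0.90), *Ier2* with *Zfp36* (r = 0.93, rho = 0.89), and *Fos* with *Jun* (r = 0.93, rho = 0.89). For each of these, p was 1e-05 before adjustment for r, the smallest that the permutations can give. *Fos* with *Zfp36*, the AP-1 subunit with the decay factor, had the highest rho (0.95, r = 0.93).

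*Dusp1* stood apart from the other 9. Its 9 pairs had r from 0.33 to 0.56 with a median of 0.46, whereas the 36 pairs without it had r from 0.69 to 0.94 with a median of 0.87. The 1 pair that did not pass for r was *Btg2* with *Dusp1* (r = 0.33, adjusted permutation p = 0.081, rho = 0.31, adjusted permutation p = 0.10). The highest pair of *Dusp1* was with *Fos* (r = 0.56, rho = 0.52, adjusted permutation p = 0.0016 and 0.0057). Without the 2 libraries farthest from the median of the gene on the x axis, r of the 36 pairs without *Dusp1* ranged from 0.62 to 0.94 and that of its own 9 pairs from 0.36 to 0.56.

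**Figure D4:**
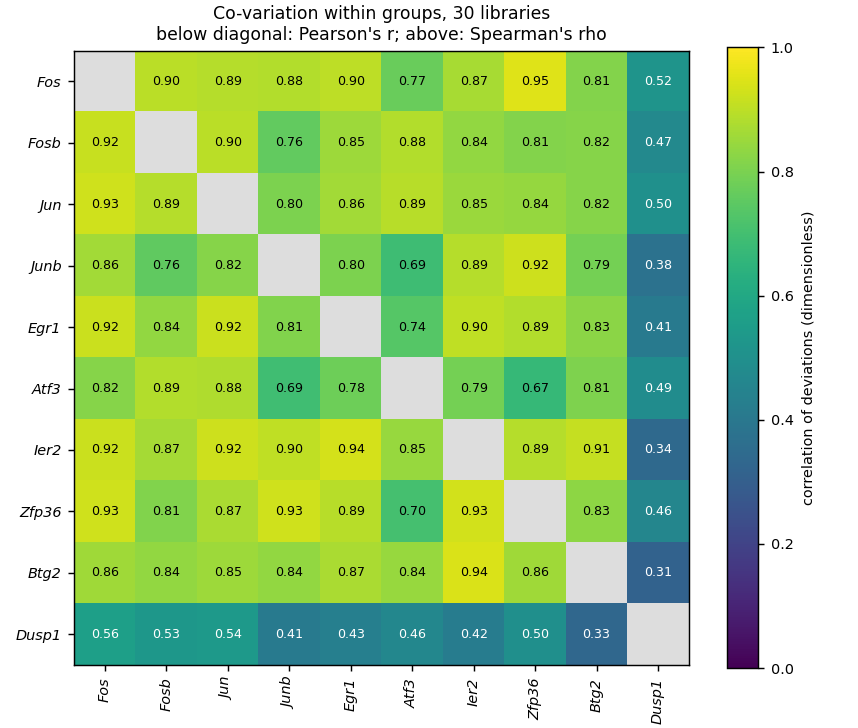
Correlation of within-group deviations for each pair of members over 30 libraries, with Pearson's r below and Spearman's rho above the diagonal. The row and column of Dusp1 are darker (r from 0.33 to 0.56) than the other pairs (r from 0.69 to 0.94).

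The relation was read again within the *Arntl* sets and within genotypes. In the 19 libraries with high *Arntl*, r of the 36 pairs without *Dusp1* ranged from 0.79 to 0.97, and in the 11 with low *Arntl* from 0.26 to 0.95, with medians of 0.92 and 0.75. *Dusp1* had r from 0.59 to 0.78 in the high set and from -0.69 to 0.32 in the low set, so that its relation did not hold among the libraries with low *Arntl*. By genotype, the median r of the 36 pairs was 0.95 in the 10 WT, 0.88 in the 10 C151S, and 0.55 in the 10 Nrf2-KO livers. For *Dusp1* these medians were 0.77, 0.52, and 0.01. Differences between these values were not tested.

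**Figure D5:**
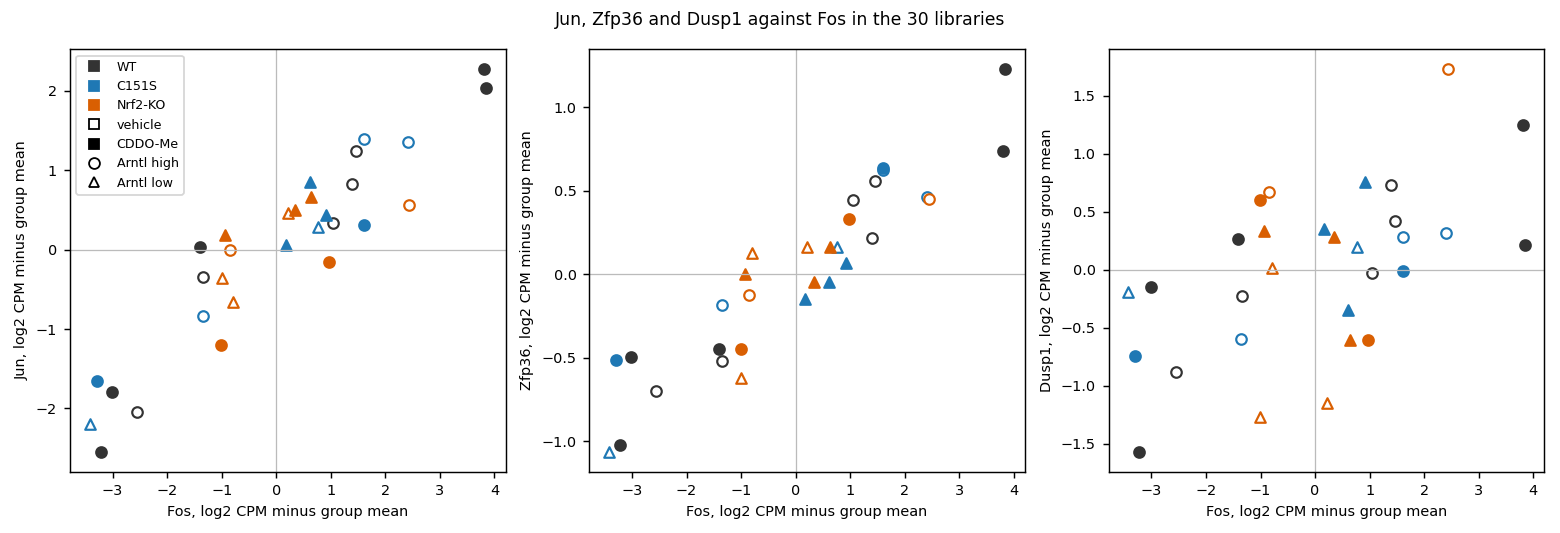
Deviations of Jun, Zfp36, and Dusp1 (y axes, log2 CPM minus group mean) against that of Fos (x axes) in 30 libraries. Colors give the genotype, open and filled points vehicle and CDDO-Me, and circles and triangles high and low Arntl. Jun (r = 0.93) and Zfp36 (r = 0.93) follow Fos along a line, and Dusp1 (r = 0.56) scatters, with Nrf2-KO points on all sides.

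Over all 15009 other genes, each member except *Dusp1* had another member among its 2 nearest genes by r, and 5 to 8 of the other members among its nearest 10. For *Dusp1* the best rank of a member was 78. The nearest gene of *Jun* was *Gdf15*, a stress cytokine (r = 0.94), which was also among the 3 nearest of *Fos* (r = 0.92). *Egr2*, a relative of *Egr1*, was nearest to *Atf3* (r = 0.91) and *Btg2* (r = 0.94), second to *Ier2* (r = 0.94), and among the nearest 10 of 9 members. *Btg2* also had *Igfbp1*, which encodes an insulin-like growth factor binding protein, among its 3 nearest (r = 0.89). The nearest genes of *Dusp1* were *Dusp6*, which encodes another MAP kinase phosphatase (r = 0.73), *Ccn1*, an early gene for a matricellular protein (r = 0.72), and *Mcm9* (r = 0.72). All of these values come from the same 30 libraries.

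The median deviation of the members over the 30 libraries was set beside other measures of each library. It had r = 0.17 (rho = 0.16) with log2 total counts, r = 0.29 (rho = 0.25) with the percent of reads on genes, and r = 0.05 (rho = 0.07) with *Arntl*. With the percent of counts on mitochondrial genes it had r = -0.32 (rho = -0.20) and with the TMM factor r = 0.27 (rho = 0.29), and the part of these in the shared deviations was not tested. With the summed deviations of cell markers, r was between -0.15 (cholangiocyte) and 0.40 (T and B cell), with 0.14 for Kupffer cell and macrophage and 0.05 for neutrophil markers. Genes of related lists followed the members to different degrees. The list of other immediate early factors had r = 0.89 (rho = 0.85), with its 16 measured genes between -0.39 and 0.95. Other MAP kinase phosphatases had r = 0.72 and other AP-1 and bZIP partners r = 0.68, with its 11 measured genes between -0.16 (*Atf2*) and 0.73 (*Jund*). The p53 targets had r = 0.71, where *Gdf15* (r = 0.93) and *Trp53inp1* (r = 0.61) followed the members. The other p53 targets had r between -0.13 and 0.17. Relatives of *Zfp36* and *Btg2* had r = 0.69, NF-kappaB feedback genes r = 0.49, upstream kinases and factors r = 0.35, and hypoxia genes r = -0.34. Glucocorticoid-responsive genes (r = -0.00), heat shock genes (r = -0.20), and clock genes (r = -0.12) had values nearer to 0.

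Relatives and upstream genes of the family were also tested for treatment. Of the other AP-1 and bZIP partners (10 or 11 tested of 12), other immediate early factors (15 or 16 of 18), other MAP kinase phosphatases (8 or 9 of 9), relatives of *Zfp36* and *Btg2* (6 of 6), and upstream kinases and factors (16 of 16), 0 were called with CDDO-Me in any genotype. In the Nrf2-KO comparison, the medians of these lists lay between -0.24 and 0.02, beside 0.97 for the members. *Dusp16* had the lowest p of its list, in WT livers, at -0.37 ± 0.08 (SE, adjusted p = 0.0209), below the threshold on size. *Ddit3* had 0.88 ± 0.25 in C151S livers (adjusted p = 0.333).

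In the vehicle-treated genotypes, 3 of 57 genes of these related lists were called in C151S against WT and 4 of 56 in Nrf2-KO against WT. These shares were 5.26% and 7.14%, beside 4.84% and 10.4% of all genes. In C151S against WT, the 3 were of 16 other immediate early factors, all higher. Among them were the Kruppel-like factors *Klf2* (0.69 ± 0.18 SE, adjusted p = 0.0368) and *Klf4* (0.94 ± 0.24, adjusted p = 0.0335). In Nrf2-KO against WT, 2 were called higher, *Klf6* among them, and *Nfil3* was called lower, of 15 tested. *Crem*, which encodes a factor that binds cAMP response elements, was lower in Nrf2-KO livers (-0.67 ± 0.14, adjusted p = 0.0109), as 1 of 16 upstream genes called. *Tob1* of the relatives of *Btg2* had its lowest p between C151S and Nrf2-KO vehicle livers (0.55 ± 0.14, adjusted p = 0.205).

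Among CDDO-Me-treated livers, 4 of 58 genes of these related lists were called between C151S and WT and 5 of 56 between Nrf2-KO and WT, shares of 6.9% and 8.93% beside 5% and 9.44% of all genes. *Myc*, an early growth gene, was lower in C151S than in WT (-1.78 ± 0.26 SE, adjusted p = 0.00245) and *Klf2* higher (1.199 ± 0.31, adjusted p = 0.0413), of 16 other immediate early factors tested. *Ccn2* was higher (1.81 ± 0.45, adjusted p = 0.0223) and *Ccn1* lower (-1.93 ± 0.50, adjusted p = 0.0251) in Nrf2-KO than in WT, of 15 tested. Of the MAP kinase phosphatases, *Dusp10* was lower in C151S (-0.81 ± 0.19, adjusted p = 0.0285) and in Nrf2-KO livers (-0.50 ± 0.15, adjusted p = 0.0488), and *Dusp4* was lower in Nrf2-KO livers (-1.59 ± 0.36, adjusted p = 0.0134). *Ddit3*, a bZIP factor of the stress response, was higher in C151S than in WT (0.85 ± 0.22, adjusted p = 0.0386), and *Elk1*, which binds with serum response factor, was higher in Nrf2-KO than in WT (0.58 ± 0.12, adjusted p = 0.0103). These comparisons share the WT libraries.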

How the data were processed

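Liver RNA libraries of 30 mice (5 per group) were sequenced. The authors aligned paired-end reads to mm10 with STAR 2.7.7 and deposited raw counts per gene for the second strand, against GENCODE M23, and the counts carry no normalization. Members and lists were chosen with earlier results of these data known. Symbols and positions came from GENCODE M21 (GRCm38). Groups follow the labels' genotype and treatment. For each pair of groups, genes were kept by filterByExpr, scaled by TMM, and tested over all genes with edgeR 4.0.16 (legacy quasi-likelihood fit, R 4.3.3). A call needed an adjusted p (Benjamini-Hochberg) below 0.05 and a log2 fold change of 0.5 or more in size. SE was derived from the fold change and F. Differences of responses were contrasts in 1 fit of 30 libraries, without a size threshold. Log2 CPM used a prior count of 2. The floor of 3 counts covers counting error only. Isolation dates, a covariate of the study, were not used here. The fits and the permutations were tested on simulated data. Alternatives were DESeq2 1.42.0, another normalization, other filters and fits, the *Arntl* set and the replicate number as terms, and each library left out. No WT liver had low *Arntl*, so that against WT the *Arntl* term left the genotype term to the mutant livers with high *Arntl*. Shares of all genes called come from the reported edgeR fits only, and none is given for the alternatives.

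Named genes were the 10 members, of each other list up to 4 called genes per comparison or the gene with the lowest p, the 3 genes nearest each member by r, and *Nfe2l2*, *Nqo1*, and *Arntl*. *Jund* and *Atf2* were named after their values were seen. A called gene of the other immediate early factors is not reported here.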

Additional observations from a re-analysis of the deposited data

Results flagged for a closer look

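Of 60 groups of 5 libraries (10 members in 6 groups), 3 held a library whose gap to the next exceeded 0.71 of the range of its group, and chance gives about 1 in 20. *Fos* was 9.54 CPM in Nrf2-KO vehicle replicate 5, where the next library had 2.0 CPM. *Fosb* was 0.640 CPM in the same library, where the next had 0.241 CPM. *Fosb* was 13.8 CPM in WT CDDO-Me replicate 4, where the next had 2.52 CPM.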

How the results depend on the processing

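Most counts of called members were 0 and stayed at 0, and the exceptions were these. With CDDO-Me in Nrf2-KO livers, DESeq2 called 2 members in place of 0. Between C151S and WT vehicle livers, the *Arntl* covariate gave 2, and leaving out a library gave 0 to 1. Between Nrf2-KO and WT vehicle livers, 2 members were called in the reported fit, 4 without a filter, 1 with the robust fit, 0 with the *Arntl* covariate, 0 in the fit of all 30 libraries, and 0 to 4 with a library left out. *Fosb*, which did not pass the filter of the reported fit, was among the 4 without a filter and the 4 with a library left out. Between C151S and Nrf2-KO vehicle livers, DESeq2 and the fit without a filter gave 1 each, and leaving out a library 0 to 4. Between Nrf2-KO and WT CDDO-Me livers, DESeq2 and the fit without a filter gave 1 each, and leaving out a library 0 to 1. The cause of these changes was not tested, and the share of all genes called in the alternatives is not given.

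Of 2756 log2 fold changes of single members under an alternative, 137 had the opposite sign of the reported value, 112 with a library left out and 18 with the replicate block, and 0 of the 137 were called in either fit. With a library left out, ranges that crossed 0 were as follows. For CDDO-Me in WT they were -0.90 to 1.98 (*Fosb*), -0.58 to 0.34 (*Jun*), -0.62 to 0.088 (*Junb*), -0.99 to 0.16 (*Egr1*), -0.087 to 0.76 (*Ier2*), -0.45 to 0.15 (*Zfp36*), and -0.13 to 0.86 (*Btg2*). For *Dusp1* they were -0.29 to 0.081 with CDDO-Me in C151S and -0.40 to 0.48 in Nrf2-KO. Between vehicle-treated livers, they were -0.49 to 1.07 for *Fosb* (C151S and WT) and -0.24 to 0.21 for *Btg2* (Nrf2-KO and WT). Between CDDO-Me-treated C151S and WT livers they were -0.40 to 0.48 (*Jun*), -0.35 to 0.72 (*Egr1*), -0.37 to 0.46 (*Ier2*), -0.12 to 0.50 (*Zfp36*), and -0.22 to 0.79 (*Btg2*). Between Nrf2-KO and WT they were -0.82 to 0.062 (*Jun*), -0.42 to 0.39 (*Ier2*), -0.018 to 0.58 (*Zfp36*), and -0.30 to 0.69 (*Btg2*). Between C151S and Nrf2-KO they were -0.29 to 0.42 (*Fos*), -1.15 to 0.44 (*Fosb*), -0.12 to 0.26 (*Ier2*), -0.29 to 0.026 (*Zfp36*), and -0.13 to 0.30 (*Btg2*). For the response of WT minus that of C151S they were -0.0013 to 0.91 (*Jun*), -0.18 to 0.55 (*Junb*), -0.021 to 0.59 (*Zfp36*), and -0.61 to 0.030 (*Dusp1*). For WT minus Nrf2-KO they were -2.15 to 0.89 (*Fosb*), -0.72 to 0.27 (*Btg2*), and -0.74 to 0.13 (*Dusp1*), and for C151S minus Nrf2-KO -0.53 to 0.33 (*Dusp1*).

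The other sign changes were these. With the *Arntl* covariate, *Dusp1* turned to 0.17 with CDDO-Me in Nrf2-KO and to 0.34 between Nrf2-KO and WT vehicle livers, and *Btg2* to -0.26 between C151S and WT CDDO-Me livers. Those against WT rest on the mutant livers with high *Arntl*. *Jun* with CDDO-Me in WT was 0.015 without a filter and 0.0028 in the fit of all 30 libraries. *Btg2* in the response of WT minus that of Nrf2-KO was 0.0042 with RLE normalization and 0.011 with at least 10 counts in every library. The median pairwise r of 0.85 ranged from 0.81 to 0.86 under the 5 other settings and from 0.83 to 0.87 with a replicate number left out.

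Replicate numbers were not taken as pairs, since same-numbered vehicle and CDDO-Me libraries had r over 0.1 in 1 of 5 pairs in WT, 2 of 5 in C151S, and 3 of 5 in Nrf2-KO. In WT, 2 of 10 libraries correlated best with their own number, in C151S 2 of 10, and in Nrf2-KO 5 of 10. Mean r of same-numbered and of other libraries was 0.0013 and 0.00092 in WT, 0.045 and -0.013 in C151S, and 0.19 and -0.047 in Nrf2-KO. The reason thus holds least for Nrf2-KO livers. With the replicate block, 1 member (*Zfp36*, -0.82) was called between Nrf2-KO and WT vehicle livers in place of 2, and no other count changed. Under the block, signs turned for *Ier2* (-0.040) and *Btg2* (-0.11) with CDDO-Me in WT, *Dusp1* (0.18) with CDDO-Me in Nrf2-KO, and *Btg2* (0.12) between Nrf2-KO and WT vehicle livers. Between CDDO-Me-treated livers they turned for *Fos* (0.50), *Jun* (0.74), *Egr1* (0.85), and *Ier2* (0.48) in C151S against WT, *Fos* (1.11), *Jun* (0.47), *Ier2* (0.58), and *Btg2* (0.98) in Nrf2-KO against WT, and *Fos* (-0.18) in C151S against Nrf2-KO. In the response of WT minus that of C151S they turned for *Jun* (-0.20), *Junb* (-0.24), and *Egr1* (-0.19), in WT minus Nrf2-KO for *Fosb* (-1.22), and in C151S minus Nrf2-KO for *Dusp1* (-0.31).

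The SD of *Fos* within groups was 2.17 on the log2 CPM scale, beside a median of 0.27 over all genes, which limits the precision of its fold changes.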

Other observations

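Further lists of genes gave these calls, chosen with earlier results of these data known. With CDDO-Me in WT livers, 3 of 9 glucocorticoid-responsive genes were higher, the metallothioneins *Mt2* (3.59 on the log2 scale) and *Mt1* (3.03) and the chaperone gene *Fkbp5* (0.97), as were *Bnip3* of 7 hypoxia genes tested (0.54) and *S100a8* (1.69), and *Alas2* was lower (-0.60). None of the 19 lists had a call with CDDO-Me in C151S or Nrf2-KO livers by edgeR.

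Between vehicle-treated Nrf2-KO and WT livers, *Icam1* (0.75), *Nfkb2* (0.52), and *Tnfaip3* (0.96) were higher of 8 NF-kappaB feedback genes tested. The metallothioneins *Mt1* (1.66) and *Mt2* (1.89) were higher. The heat shock genes *Hsp90aa1* (-1.05) and *Hspb1* (-1.68) and the p53 target *Trp53inp1* (-1.17) were lower. Of 11 clock genes, *Ciart* (3.91), *Dbp* (1.80), and *Per2* (1.06) were higher and *Clock* lower (-0.94). Low *Arntl* occurred only in mutant livers, 3 of them in this Nrf2-KO group. Its part in the clock gene calls here and below was not tested. Between vehicle-treated C151S and WT livers, *Bcl3* (-0.57), *Hsp90aa1* (-0.94), *Hspb1* (-1.01), and *Spp1* (-0.83) were lower and *Ciart* (3.66), *Mt1* (1.45), and *Mt2* (1.24) higher. No T and B cell or hepatocyte marker was called in any comparison of 2 groups.

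Among CDDO-Me-treated livers, the heat shock genes *Hspa1b* (1.498) and *Dnajb1* (0.76) were higher in C151S than in WT. In the same comparison the glucocorticoid-responsive genes *Per1* (1.58), *Fkbp5* (1.498), *Tat* (1.06), and *Tsc22d3* (0.78), *Tnfaip3* (0.78), and *Ciart* (3.04) were higher, and the macrophage marker *Marco* was lower (-1.13). Between Nrf2-KO and WT, *Cdkn1a* (3.72), which stands in both the glucocorticoid-responsive and the p53 lists, *Ciart* (2.19), *Per2* (1.29), *Col3a1* (1.17), and *Pecam1* (0.57) were higher, and *Marco* (-2.14), *Pdk1* (-0.91), and *Clock* (-0.62) were lower.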
